A study of Mus musculus with 20 samples.

Results

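Sorted cones of Dgcr8 knockout (KO) mice were compared with sorted cones of wild type (WT) control mice at postnatal day 40 (P40), with 2 libraries per genotype. These are 4 of the 20 libraries of a series that followed both genotypes from P30 to P90, and every named gene was read in them. A gene was tested when its mean over the 4 libraries was at least 5 CPM, which left 11616 of 23077 gene symbols. Filters and their margins used CPM of the library total alone. All other levels here are CPM scaled by TMM to a common library total. The other 11461 were not tested, and 899 of those had 0 counts in all 4 libraries. At that threshold Pdgfc (mean 4.999 CPM) fell just outside and Armc4 (mean 5.004 CPM) just inside. The tested genes held 97.3 to 99.1% of the counts of each library.

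Both groups were C57BL/6 mice kept on a 12-hour light and dark cycle, and RNA came from retinal cones isolated by fluorescence-activated cell sorting. The KO carried the cone-specific Cre driver D4-cre, a conditional DGCR8 allele that the driver deletes, and the floxed tdTomato reporter Ai9. The WT group is labelled D4-cre/Ai9 tdTomato, so Cre and reporter are shared by both groups, although the breeding note also allows controls with D4-cre alone. The labels give neither the sex nor the number of animals behind a library. Nothing in them states that replicates are different animals, and every p-value rests on library-to-library spread that could be technical.

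DGCR8 is the RNA-binding partner of the nuclease Drosha. The pair cuts microRNA hairpins out of long primary transcripts in the nucleus, Dicer then releases the mature microRNA, and an Argonaute protein carries it to messenger RNAs whose 3 prime UTR pairs with its seed, the bases 2 to 8. A paired messenger is translated less and decays sooner. Photoreceptors are known for high levels of the linked microRNAs miR-182, miR-96 and miR-183 and of miR-124, and cones are the photoreceptors of daylight and colour vision.

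The WT libraries held 3.37 and 2.76 M counts and the KO libraries 8.88 and 7.83 M (M, mega), so low WT levels rest on fewer reads. Cone markers summed to 17678 and 17567 CPM in WT and 17492 and 17664 in KO. Rod markers, which a pure cone sort would lack, summed to 15207 and 15482 in WT and 13652 and 13386 in KO, so rod RNA was present in every library. The 1420 olfactory and vomeronasal receptor genes, most of which retina does not use, took 0.150 and 0.157% of WT counts and 0.0580 and 0.0597% of KO counts. They are called silent below but include Olfr1372-ps1, with 221 and 210 counts in WT and 2311 and 2071 in KO. Lens crystallins were present in both KO libraries and near 0 in both WT libraries, and Xist was low in both WT libraries, as given further on. In bulk RNA, fewer cells of a type and less RNA per cell cannot be told apart.

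Dgcr8 itself stood at 81.7 and 93.3 CPM in the WT libraries and 49.7 and 55.1 in the KO libraries, a log2 fold change of -0.74 (SE 0.143, adjusted p = 1.23e-04). The gene lies on chr16:18253948-18289246 of GRCm38, minus strand. The groups did not overlap, in the direction of the labels, and Dgcr8 messenger RNA remained in the KO libraries. The counts are of the whole gene, and the sources used here do not say which exons the conditional allele loses.

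Across all genes, 1600 were higher in KO (13.8% of those tested) and 1138 were lower (9.80%), and 8878 did not pass. The WT and KO libraries did not overlap in any of the 2738 called genes, as in 33.5% of all tested genes with KO above and 36.7% with KO below. The threshold was an adjusted p below 0.05 in edgeR's quasi-likelihood test. At least 2-fold differences were fewer, with 218 genes higher and 726 lower, and they lay at different levels. The 2-fold higher genes had a median level of 47.6 CPM, against 29.6 for all genes tested. The 2-fold lower genes had a median level of 8.96 CPM. In 436 of those 726 genes the KO mean was under 5 CPM, so they passed the level filter only through the WT libraries, while 290 had a KO mean of at least 5. The silent receptor genes, at 0.150 to 0.157% of counts in WT and 0.0580 to 0.0597% in KO, moved the same way as these low genes, and their part in the result was not tested. Higher genes made up 58.4% of calls here, 82.0% when the scaling used all genes past edgeR's own filter and 36.8% when it used genes of at least 32 CPM. Those scalings put the median log2 fold change of all genes at 0.20 and -0.16, against -0.03 here, so small changes are relative to that choice. Leaving out any 1 of the 4 libraries left 1010 to 1108 genes higher and 352 to 510 lower.

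**Figure D1:**
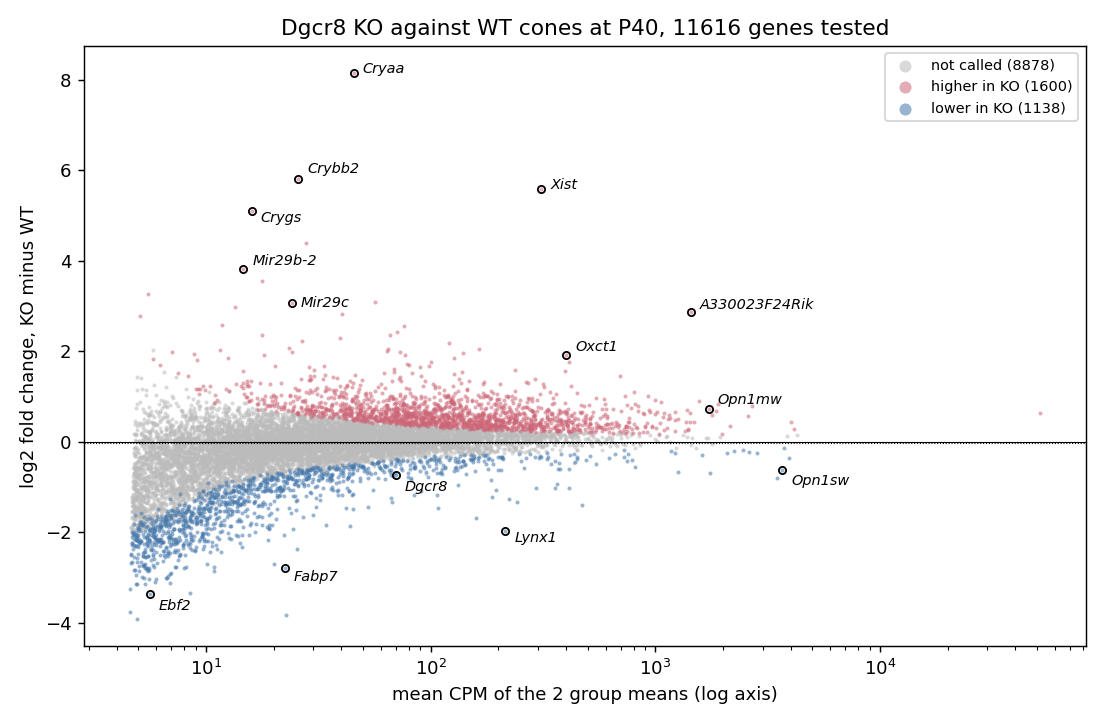
Each point is 1 of 11616 genes, with the mean of the 2 group means in CPM on a log axis and the log2 fold change, KO minus WT at P40, on the vertical axis. Red marks the 1600 genes that were higher, blue the 1138 that were lower and grey the rest, and the dotted line is the median of all genes, -0.03, which the other 2 scalings put at 0.20 and -0.16. Large falls sit at low levels on the left, with a median of 8.96 CPM among the 726 genes at least 2-fold lower, while the labelled points at the upper right include Xist, A330023F24Rik (2.86) and Oxct1 (1.92).

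A strong rise of an abundant transcript, though smaller than that of Xist, was in A330023F24Rik. This long noncoding RNA at chr1:194976375-195037904 (plus strand) carries the hairpins of miR-29b and miR-29c. A330023F24Rik stood at 339 and 356 CPM in WT and 2526 and 2516 in KO, a log2 fold change of 2.86 (SE 0.0733, adjusted p = 6.45e-30). Among the genes of next smallest p were several enzymes. Oxct1, the mitochondrial enzyme that activates ketone bodies for burning, rose from 172 and 163 CPM to 622 and 646, a log2 fold change of 1.92 (SE 0.088, adjusted p = 1.6e-20). Bcat1, the cytosolic transaminase of branched-chain amino acids, rose from 377 and 370 CPM to 1033 and 1006, a log2 fold change of 1.45 (SE 0.071, adjusted p = 1.16e-19). Acsl1, which activates long-chain fatty acids, rose from 167 and 157 CPM to 437 and 406 (log2 fold change 1.38).

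The other most certain rises had varied roles. Nptx1, a secreted pentraxin that gathers glutamate receptors at synapses, stood at 187 and 188 CPM in WT and 654 and 617 in KO, a log2 fold change of 1.76. Cckbr, a receptor for cholecystokinin, stood at 115 and 122 CPM in WT and 374 and 342 in KO, a log2 fold change of 1.59. Ssx2ip, an adhesion and centrosome protein, had 202 and 198 CPM in WT and 597 and 581 in KO. In each of these the KO libraries were far above the WT libraries and differed little from each other. Tnc, which encodes the matrix protein tenascin C, rose from 21.0 and 22.0 CPM to 107 and 113 (2.36 on the log2 scale). Cit, a kinase of cell division also known in neurons, rose from 37.6 and 49.9 CPM to 194 and 200.3 (2.18). Olfr1372-ps1, annotated as an olfactory receptor pseudogene, rose from 59.4 and 69.0 CPM to 263 and 267 (2.05), against the fall of the receptor genes as a class. Hspa5 and Xist complete the 12 and are described with their groups, and the 5 largest fitted rises were Xist and the lens crystallin genes.

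Among falls of at least 2-fold, those of smallest p were in genes of varied roles. Lynx1, a membrane-anchored modulator of nicotinic acetylcholine receptors, stood at 348 and 338 CPM in WT and 89.6 and 83.9 in KO, a log2 fold change of -1.98 (SE 0.11, adjusted p = 5.12e-18). Lrtm1, a leucine-rich repeat membrane protein, stood at 722 and 645 CPM in WT and 266 and 255 in KO, a log2 fold change of -1.39. Crb1, the polarity protein of the outer limiting membrane that is mutated in inherited retinal disease, stood at 543 and 557 CPM in WT and 283 and 260 in KO, a log2 fold change of -1.02. All 3 stood at 83.9 CPM or above in every library, and none of their groups overlapped. Adcy1, a calcium-stimulated adenylate cyclase, fell from 388 and 403 CPM to 190.4 and 200 (-1.02). Olfm1, a secreted olfactomedin of neurons, fell from 514 and 444 CPM to 247 and 222 (-1.03). Hspa12a, a distant relative of the Hsp70 chaperones, fell from 268 and 261 CPM to 125 and 126 (-1.07).

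The remaining falls of this kind included 2 very long genes, Dnahc9 and Ttn. Dnahc9, an axonemal dynein heavy chain, fell from 273 and 254 CPM to 111 and 115 (log2 fold change -1.22), and Ttn, the giant muscle protein titin, from 215 and 270.3 to 67.5 and 83.0 (-1.69). Fabp7, a fatty acid binding protein of glia, fell from 38.2 and 40.1 CPM to 6.15 and 5.02 (-2.80, SE 0.28, adjusted p = 2.64e-10). Tmsb10, an actin-binding thymosin, fell from 144 and 151 CPM to 67.2 and 63.0 (-1.18). Sfi1, a centrosome protein, and Fam40b changed by -1.48 and -1.34. The 5 largest fitted falls were all of genes near the level filter. Ebf2, a transcription factor, had 9.95 and 10.51 CPM in WT and 0.911 and 1.03 in KO, and Brip1, Ccr3, Nlrp9c and Calcr had KO levels of 0.515 to 1.94 CPM. Leaving out 1 library ended the call of Ebf2, Ccr3, Nlrp9c and Calcr, and each of the 5 passed the filter only through WT.

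Among the 19 tested genes of the microRNA pathway, 8 were higher and 2 were lower, against 13.8% and 9.80% of all genes. Their median log2 fold change was 0.33, against -0.03 for all genes. The split was 11 and 2 with scaling on all genes past edgeR's filter and 6 and 2 on genes of at least 32 CPM. The median became 0.55 and 0.19. Most rises lay downstream of the nuclear cut. Dicer1 stood at 165 and 173 CPM in WT and 286 and 272 in KO, a log2 fold change of 0.73 (adjusted p = 1.52e-07). Eif2c2, which encodes Argonaute 2, stood at 58.6 and 60.8 CPM in WT and 131 and 111 in KO, a log2 fold change of 1.02 (SE 0.17, adjusted p = 1.26e-05). Eif2c1, for Argonaute 1, changed by 0.57. The 3 genes of the GW182 scaffold, which joins Argonaute to the decay machinery, all rose, with log2 fold changes of 0.57 for Tnrc6b, 0.48 for Tnrc6a and 0.40 for Tnrc6c. Xpo5, which exports hairpins from the nucleus, rose by 0.56, and the RNA helicase Ddx17, an accessory of Drosha, by 0.43. Drosha did not pass, at 81.2 and 76.2 CPM in WT and 81.7 and 80.9 in KO, and its difference of 0.04 became -0.094 when scaled on genes of at least 32 CPM. The lower members were Dgcr8 and Lin28b (-1.59), a repressor of let-7 that stood at 16.9 and 11.8 CPM in WT and 5.81 and 3.73 in KO.

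A read counted at a microRNA gene here overlaps the hairpin's position, so primary transcripts and mature microRNAs were not separated. Of 579 annotated microRNA genes, 297 had 0 counts in all 4 P40 libraries and 12 were tested. Of these 12, 5 were higher in KO, against 13.8% of all genes. Both hairpins of the A330023F24Rik transcript were among them. Mir29c had 25 and 10 counts in WT and 361 and 350 in KO, or 6.72 and 3.28 CPM against 41.1 and 45.1, a log2 fold change of 3.06 (SE 0.31, adjusted p = 2.00e-10). Mir29b-2 had 8 and 5 counts in WT and 198 and 250 in KO, or 2.15 and 1.64 CPM against 22.6 and 32.2, a log2 fold change of 3.82 (SE 0.41, adjusted p = 1.12e-09). Mir29b-2 (chr1:195037040-195037120) and Mir29c (chr1:195037547-195037634) lie in an exon of A330023F24Rik on its strand and in an exon of Cd46 on the opposite strand. The strand of the reads is not given in the sources used here, and Cd46 itself had 15 to 23 counts in every P40 library. Mir29b-2 passed the filter only through the KO libraries, and the WT mean of Mir29c lay at the threshold.

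The mature products of these hairpins share 1 seed and, with the 3 members of the photoreceptor cluster on chromosome 6, are the microRNAs whose targets are followed below. The sequences are from RefSeq (GRCm38.p6), 5 prime to 3 prime, with the seed in capitals. The seed of miR-96 differs from that of miR-182 at 1 of 7 bases and from that of miR-183 at 1 of 7.
miR-29b-3p (chr1:195037091-195037113, plus strand): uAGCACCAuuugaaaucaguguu
miR-29c-3p (chr1:195037600-195037621, plus strand): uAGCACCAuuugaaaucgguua
miR-182-5p (chr6:30165962-30165986, minus strand): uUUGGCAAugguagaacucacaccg
miR-96-5p (chr6:30169506-30169528, minus strand): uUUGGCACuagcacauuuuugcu
miR-183-5p (chr6:30169711-30169732, minus strand): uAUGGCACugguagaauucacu

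The other 3 higher microRNA genes were Mir124a-2, Mir3078 and the host RNA gene Mir17hg. Mir124a-2 had 6.99 and 7.88 CPM in WT and 22.7 and 21.1 in KO (log2 fold change 1.56, adjusted p = 0.00102), and 2610100L16Rik, the annotated host RNA of that hairpin, 153 and 138 against 223 and 222 (0.61). Mir3078 (chr14:64591185-64591271) lies in an exon of Mir124a-1hg, the host of Mir124a-1, and had 16.9 and 13.8 CPM in WT and 45.6 and 39.4 in KO (1.46). Mir124a-1 in the same host had 15 and 7 counts in WT and 74 and 47 in KO and did not pass. The hairpins of the photoreceptor cluster were below the filter at this depth. Mir96 had 6 and 8 counts in WT and 28 and 38 in KO (1.61 and 2.63 CPM against 3.19 and 4.89), Mir182 had 1 and 0 against 9 and 7, and Mir183 had 1 or 2 in every library. Among 16 tested host transcripts 4 were higher and 4, Meg3, Trpm1, Trpm3 and Dnm3os, were lower, against 13.8% and 9.80% of all genes. Mir17hg, the host of the miR-17 to miR-92 cluster, rose from 18.6 and 17.1 CPM to 46.2 and 53.8 (1.49), while Dnm3os, the host of miR-199 and miR-214, had 11.6 and 13.1 CPM in WT and 4.33 and 2.06 in KO (-1.93) and lost its call without the second library of either genotype.

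**Figure D2:**
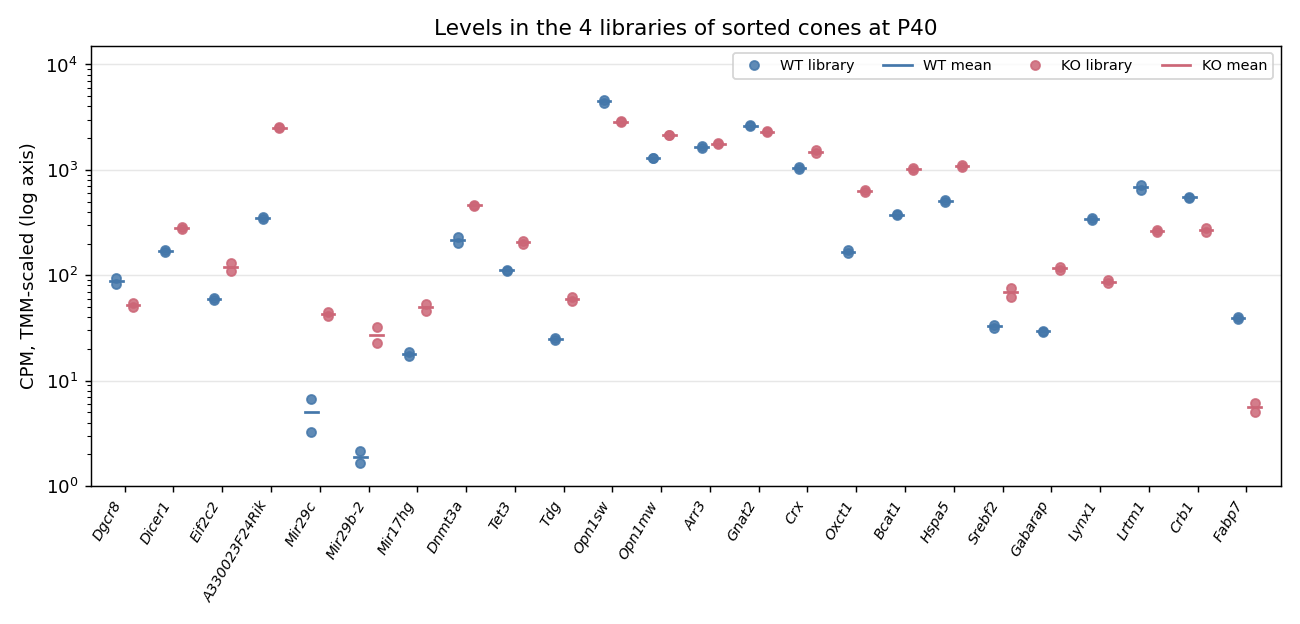
Points are the 2 WT (blue) and 2 KO (red) libraries at P40 and short lines their means, in TMM-scaled CPM on a log axis, for 24 genes of the microRNA pathway, the miR-29 transcript and its targets, cone function, metabolism and the strongest falls. Libraries of a genotype lie close together, A330023F24Rik, Mir29c and Mir29b-2 are far higher in KO, and Opn1sw and Opn1mw differ in opposite directions.

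Of 18 tested reported miR-29 targets 5 were higher, against 13.8% of all genes, and 2 were lower. The split was 6 and 1 with scaling on all genes past edgeR's filter and 4 and 6 on genes of at least 32 CPM. The median of -0.12 became 0.10 under the first of these and -0.26 under the second. Of the 5 higher genes 4 act on DNA methylation, while Dnmt3b and Tet1, which do so too, did not pass (-1.37 and -0.37). Dnmt3a, the de novo DNA methyltransferase, stood at 229 and 202 CPM in WT and 458 and 463.5 in KO, a log2 fold change of 1.10 (SE 0.088, adjusted p = 5.28e-13). Tet3, which oxidises methylated cytosine, stood at 110.0 and 113 CPM in WT and 213 and 199.8 in KO, a log2 fold change of 0.89 (SE 0.11, adjusted p = 3.63e-08). Tdg, the glycosylase that removes the oxidised base, had 24.5 and 25.3 CPM in WT and 61.7 and 57.2 in KO, a log2 fold change of 1.26 (SE 0.21, adjusted p = 8.73e-06). These 3 enzymes act on DNA methylation at successive steps, and in none did the groups overlap. Tet2, from the same family as Tet3, had 268 and 310.0 CPM in WT and 425 and 413 in KO (0.54, SE 0.088, adjusted p = 9.03e-06), and the small GTPase Cdc42 rose by 0.40. The lower targets were Col1a2, a chain of type I collagen, with 14.8 and 16.1 CPM in WT and 3.64 and 3.22 in KO (-2.16, a call lost when either KO library was left out), and the microfibril gene Fbn1 (-0.81). Sparc, with 43.8 and 43.7 CPM in WT and 40.7 and 41.2 in KO, and Col4a1, with 5.25 to 14.8 CPM in the 4 libraries, did not pass.

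Matches to the miR-29 seed in the longest annotated 3 prime UTR numbered 5 in Dnmt3a, 8 in Tet3, 5 in Tet2, 3 in Tdg and 1 in Cdc42, the higher genes. Of the 13 that were not higher, Tet1 has 7 matches, Fbn1 and Col4a2 have 2, Col1a2 and Sparc have 0, and Col3a1, Col4a1, Dnmt3b, Mcl1, Lamc1, Pik3r1, Bace1 and Lpl have 1 each. A match is the reverse complement of the seed, TGGTGCT, read on the strand of the messenger only. It was present in 17.02% of the 11108 UTRs searched. Capitals mark the 7 matches in Dnmt3a, Tet3, Tet2 and Tdg that are followed by A, the base known to strengthen a site, on the GENCODE M21 annotation of GRCm38. A match describes the letters of the UTR and not a binding event.
Dnmt3a, the fourth match (chr12:3911394-3911422, plus strand): ggggaggtagcTGGTGCTagcaccagggt
Dnmt3a, the fifth match (chr12:3911463-3911491, plus strand): gggtcccaagcTGGTGCTaattcctctca
Tet3, the fifth match (chr6:83364326-83364354, minus strand): agtctaataaaTGGTGCTatggtgtttca
Tet3, the eighth match (chr6:83363767-83363795, minus strand): ccgcttttagtTGGTGCTaaacttctccc
Tet2, the second match (chr3:133466163-133466191, minus strand): ttaacattaaaTGGTGCTacaaatggtgt
Tet2, the fifth match (chr3:133465106-133465134, minus strand): tcacatcacgaTGGTGCTacccagattgc
Tdg, the second match (chr10:82649666-82649694, plus strand): tgcattttccaTGGTGCTacagacagcct

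Of 20 tested reported targets of miR-96, miR-182 and miR-183, 7 were higher, against 13.8% of all genes, and the other 13 did not pass, with a median log2 fold change of 0.25. The split was 11 higher with scaling on all genes past edgeR's filter and 3 higher and 1 lower on genes of at least 32 CPM. Arrdc3, an arrestin-like adaptor, stood at 320 and 298 CPM in WT and 494 and 524 in KO (0.72, adjusted p = 1.86e-08). Idh2, the mitochondrial isocitrate dehydrogenase, had 9.68 and 12.8 CPM in WT and 26.9 and 27.4 in KO (1.28), and the small GTPase Rac1 had 40.6 and 35.5 against 61.3 and 56.8 (0.63). Adcy6, an adenylate cyclase, had 133 and 123 CPM in WT and 165 and 168 in KO (0.38), and the circadian regulator Clock rose by 0.31. The calls of Adcy6 and Clock were lost with scaling on genes of at least 32 CPM. Adcy6 holds matches for all 3 seeds, TTGCCAA for miR-182, GTGCCAA for miR-96 and GTGCCAT for miR-183, present in 13.9, 10.8 and 12.1% of UTRs. The stretches shown for its miR-96 and miR-183 matches overlap. The 2 metabolic genes with the most certain rises also hold matches of these families, Oxct1 for miR-29 and miR-183 and Bcat1 for miR-183 and miR-182. They were looked up after their rise was known, so these matches are shown as sequence only.
Adcy6, miR-182 match (chr15:98591769-98591797, minus strand): aatgtttccatTTGCCAAatcctagtccc
Adcy6, miR-96 match (chr15:98591051-98591079, minus strand): agtccttttttGTGCCAAatccctaagtg
Adcy6, miR-183 match (chr15:98591036-98591064, minus strand): caaatccctaaGTGCCATttgggggccac
Oxct1, miR-29 match (chr15:4154311-4154339, plus strand): atatgctctgcTGGTGCTgacatcccact
Oxct1, miR-183 match (chr15:4155271-4155299, plus strand): actttctaagaGTGCCATgatatttttta
Bcat1, miR-183 match (chr6:144994822-144994850, minus strand): agatgtgtgccGTGCCATgtggttgttcc
Bcat1, miR-182 match (chr6:144993843-144993871, minus strand): ccacctttctgTTGCCAAtaaaacaactg

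Reported targets of miR-124 were divided, with 4 higher and 3 lower of 21 tested, against 13.8% and 9.80% of all genes. Their median was 0.08. The split was 8 higher with scaling on all genes past edgeR's filter and 1 and 4 on genes of at least 32 CPM, where the median became -0.06. Cdk6, a cyclin-dependent kinase, rose from 30.4 and 29.6 CPM to 65.0 and 63.9 (log2 fold change 1.10), and the glucocorticoid receptor gene Nr3c1 (0.40) and the integrin gene Itgb1 (0.46) rose less. The lactate transporter gene Slc16a1 (-0.33), the Notch ligand gene Jag1 (-0.35) and the histone methyltransferase gene Ezh2 (-0.52) were lower. Of the 5 with the smallest p, all but Ezh2, Cdk6 alone kept its call in every alternative run.

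Across the transcriptome, genes with a seed match moved little as a group. For 9 seed families, the medians of genes with and without a match differed by at most 0.05 on the log2 scale. Among the 11108 genes with a UTR, 14.1% were higher and 9.39% lower. With a miR-182 match 19.6% of 1544 genes were higher, against 13.2% of genes without one, and with a miR-183 match 18.7% of 1342 against 13.5%. For miR-29 the shares were 17.8% of 1891 genes and 13.4%, and for miR-96 16.4% of 1198 and 13.8%. The families let-7, miR-9, miR-204, miR-26 and miR-181, which were read for comparison, had 16.8 to 17.1% higher with a match and 13.3 to 13.8% without. Genes with a match have longer UTRs, with a median of 2798 bases for miR-182 against 1233 without a match, and lower genes were also more frequent among them for miR-182 (12.4 against 8.91%). Within the top tertile of UTR length the shares of higher genes were 20.9 against 16.8% for miR-182, 19.9 against 17.4% for miR-183, 19.5 against 17.2% for miR-29 and 16.9 against 18.2% for miR-96. The comparison families in that tertile had 19.1 against 17.2% for miR-181, 18.7 against 17.6% for miR-9 and 18.3 against 17.8% for let-7. For miR-204 the shares were 17.8 against 18.0%, and for miR-26 17.5 against 18.1%. There the lower genes were fewer with a miR-29 match (11.4 against 13.3%) and more numerous with a miR-182 match (14.6 against 12.0%). These shares are descriptions of overlapping sets of genes and carry no test.

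**Figure D3:**
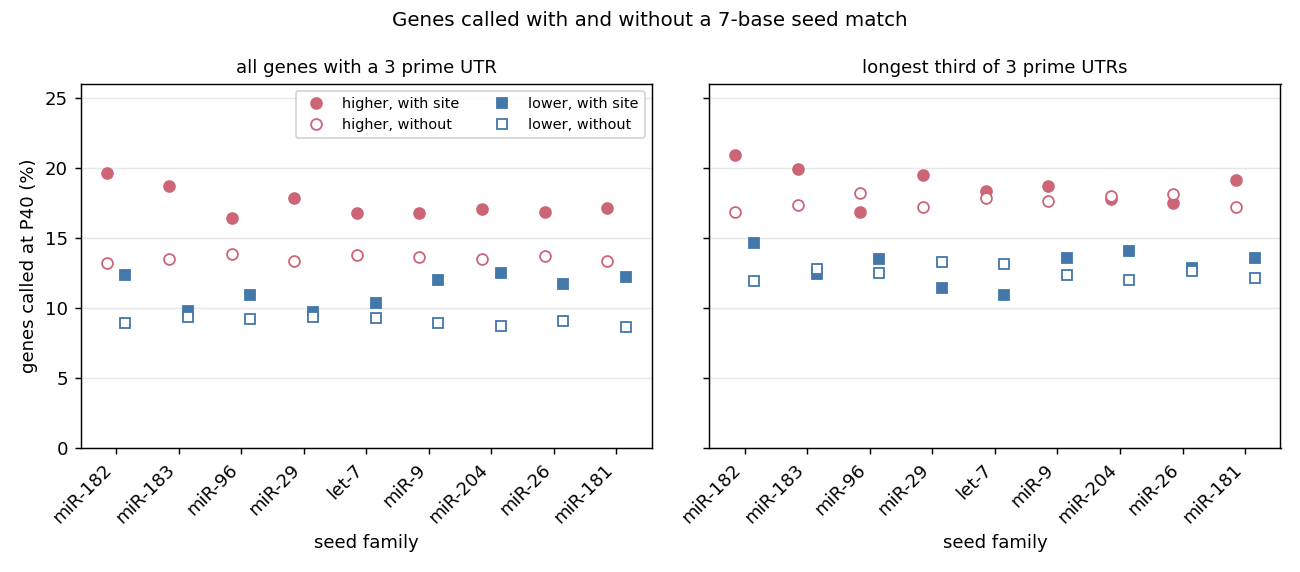
Percent of genes called higher (red circles) or lower (blue squares) at P40, with a 7-base seed match in the 3 prime UTR (filled) and without one (open), for 9 seed families on the horizontal axis, over all genes with a UTR (left) and the top tertile of UTR length (right). Filled red circles lie above open ones for every family on the left, highest for miR-182 at 19.6%, and on the right the gaps shrink, with miR-96 at 16.9% with a match and 18.2% without.

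The 2 cone opsins changed in opposite directions. Opn1sw, the short-wavelength opsin (chr6:29376671-29388468), stood at 4590 and 4351 CPM in WT and 2893 and 2860 in KO, a log2 fold change of -0.64 (SE 0.050, adjusted p = 2.32e-13). Opn1mw, the medium-wavelength opsin (chrX:74127464-74150760), stood at 1306 and 1307 CPM in WT and 2162 and 2130 in KO, a log2 fold change of 0.72 (SE 0.080, adjusted p = 2.73e-09). Both kept direction and call under every other scaling, filter, block and left-out library and with DESeq2, but neither passed glmTreat, which asks for a change beyond 1.5-fold. Cone arrestin did not follow either opsin, since Arr3 had 1627 and 1684 CPM in WT and 1745 and 1784 in KO, a log2 fold change of 0.09 (adjusted p = 0.313) that became -0.047 with scaling on genes of at least 32 CPM. Gnat2, the cone transducin alpha subunit, had 2650 and 2591 CPM in WT and 2270 and 2313 in KO, a log2 fold change of -0.19 (adjusted p = 0.0263) that became 0.028 with scaling on all genes past edgeR's filter.

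Of 22 tested phototransduction genes 7 were higher and 6 lower, against 13.8% and 9.80% of all genes. That split was 14 and 3 with scaling on all genes past edgeR's filter and 3 and 7 on genes of at least 32 CPM. Gnb3, the beta subunit of cone transducin, had 884 and 916 CPM in WT and 1218 and 1192 in KO (log2 fold change 0.42). The gene of the inhibitory phosphodiesterase subunit, Pde6h (0.26), and those of guanylate cyclase Gucy2e (0.31), the exchanger Slc24a2 (0.40), the potassium channel subunit Kcnv2 (0.28) and phosducin, Pdc (0.28), were also higher. Of the lower genes, Guca1b, an activator of guanylate cyclase, had 161 and 157 CPM in WT and 106 and 99.3 in KO (-0.63), and Rcvrn, or recoverin, had 802 and 817 against 644 and 643 (-0.33). The opsin kinase gene Grk1 (-0.26) and the second guanylate cyclase, Gucy2f (-0.49), were lower as well. The call of Rcvrn was lost with scaling on all genes past edgeR's filter and that of Pde6h on genes of at least 32 CPM. Cnga3, Pde6c and Gngt2, of the cone channel, phosphodiesterase and transducin, did not pass.

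Outer segment genes were also divided, with 6 higher and 6 lower of 21 tested, against 13.8% and 9.80% of all genes. That split was 13 and 1 with scaling on all genes past edgeR's filter. Impg2, a proteoglycan of the matrix around photoreceptors, had 1088 and 1140 CPM in WT and 1739 and 1709 in KO (log2 fold change 0.63), and Impg1 rose by 0.68. Prom1 had 771 and 805 CPM in WT and 1190 and 1203 in KO (0.60), and Cdhr1 had 917 and 796 against 1360 and 1306 (0.64), both proteins of newly forming discs. Rbp3, the retinoid carrier of that matrix, rose by 0.44. The lower members included Crb1, given above, the disc rim protein gene Prph2 (-0.20), its partner Rom1 with 556.8 and 557 CPM in WT and 416 and 428 in KO (-0.40), and the actin bundler gene Fscn2 (-0.67). Of the 6 lower members Crb1 alone kept its call with scaling on all genes past edgeR's filter.

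In the cilium list 6 of 42 tested genes were higher and 2 lower, against 13.8% and 9.80% of all genes, or 14 and 1 with scaling on all genes past edgeR's filter. The higher ones named by rule were Ahi1 with 386 and 405 CPM in WT and 578 and 575 in KO (log2 fold change 0.54), the transition zone gene Cep290 (0.40) and the BBSome genes Bbs4 (0.39) and Bbs1 (0.50), and the lower ones included Lca5 (-0.33). At the photoreceptor synapse 11 of 28 were higher and 4 lower, with a median of 0.11. The split was 17 and 1 with scaling on all genes past edgeR's filter and 5 and 6 on genes of at least 32 CPM, where the median became -0.03. Elfn1, the adhesion protein that joins photoreceptor terminals to bipolar cells, had 60.2 and 64.7 CPM in WT and 153 and 140 in KO (1.23, adjusted p = 1.19e-08). Cacna2d4, a subunit of the presynaptic calcium channel, had 469 and 468 CPM in WT and 720 and 716 in KO (0.62), and the calcium pump gene Atp2b1 rose by 0.52. Cplx4, a complexin of ribbon synapses, had 829 and 877 CPM in WT and 638 and 632 in KO (-0.43), and Rims1 of the active zone changed by -0.99.

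Photoreceptor transcription factors had 6 higher and 3 lower of 19 tested, against 13.8% and 9.80% of all genes, or 10 higher with scaling on all genes past edgeR's filter and 3 and 3 on genes of at least 32 CPM. Crx, which drives most photoreceptor genes, had 1070 and 1012 CPM in WT and 1527 and 1442 in KO (log2 fold change 0.51, adjusted p = 3.97e-07). Casz1 (0.54), Thrb (0.39), the thyroid hormone receptor needed for the medium-wavelength opsin, and Mef2d (0.36) were higher. Nrl, with 184 and 224 CPM in WT and 156 and 155 in KO (-0.39), and Nr2e3 (-0.38) were lower. Those are the rod fate factors and also rod markers, and the call of Nrl was lost in 5 alternatives, with scaling on all genes past edgeR's filter among them.

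**Figure D4:**
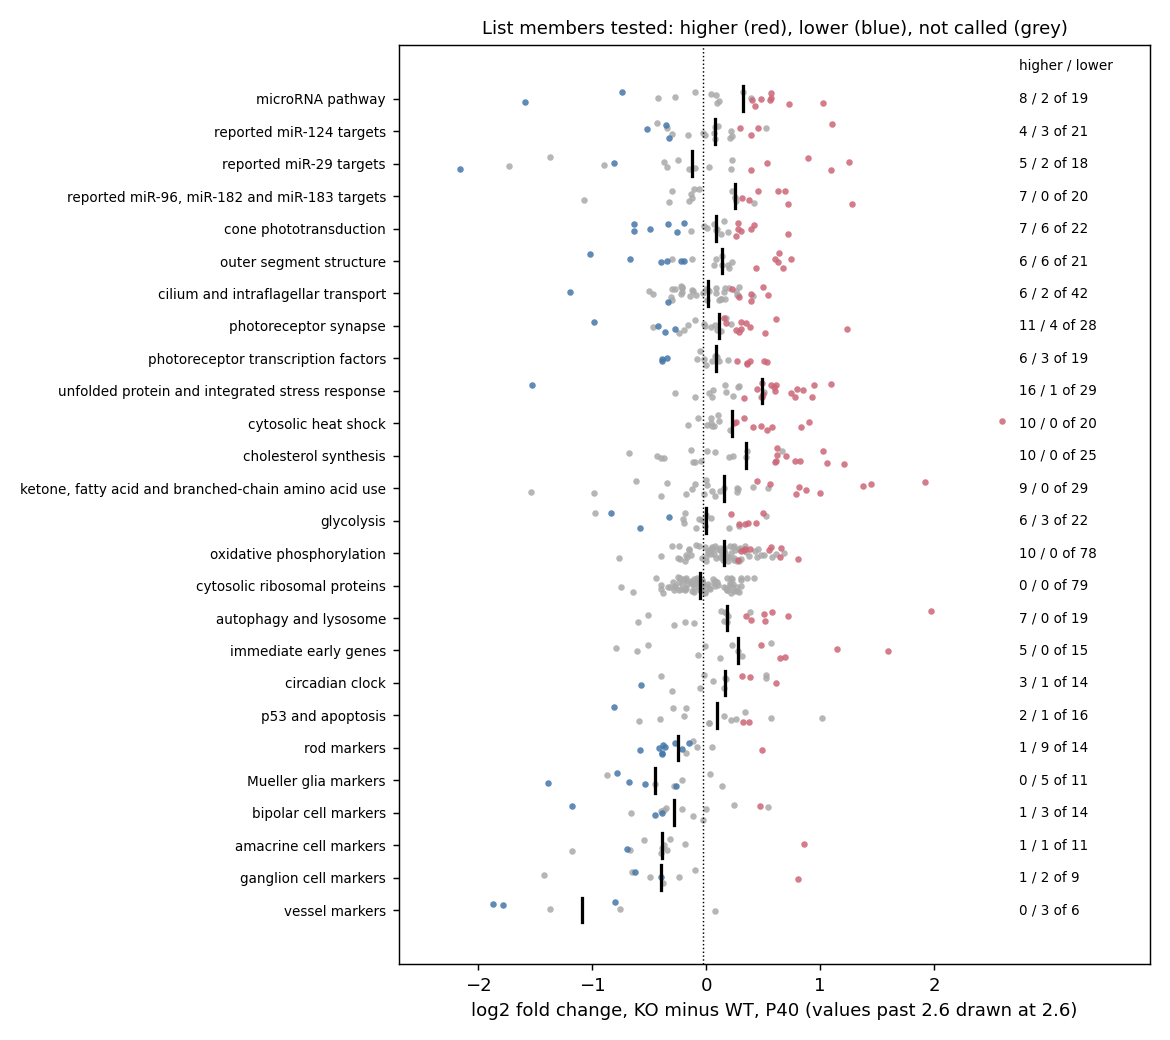
Each point is a tested member of the gene list named at the left, at its log2 fold change KO minus WT at P40, red where higher, blue where lower and grey where not called, with the list median as a black bar and the median of all genes as a dotted line. Numbers at the right are higher and lower members of those tested. Unfolded protein response (16 higher of 29), heat shock (10 of 20) and cholesterol synthesis (10 of 25) lie to the right under each scaling run, while phototransduction medians move from 0.09 to 0.31 or -0.05 with the scaling.

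In the list of the unfolded protein and integrated stress responses, 16 of 29 tested genes were higher, against 13.8% of all genes, and 1 was lower, with a median log2 fold change of 0.49 that stayed at 0.35 or above under the other scalings. Hspa5, the main chaperone of the endoplasmic reticulum, known as BiP, had 522 and 499 CPM in WT and 1112 and 1075 in KO (1.10, SE 0.072, adjusted p = 1.69e-15). Hsp90b1 had 673 and 698 CPM in WT and 1301 and 1305 in KO (0.93), the lectin chaperone gene Calr 358 and 350 against 608 and 610 (0.78), and its disulfide isomerase partner Pdia3 93.0 and 93.3 against 171 and 189 (0.95). Dnajc3 (0.80), an inhibitor of the stress kinase PERK, and Eif2ak3 (0.85), the gene of PERK itself, were also higher. The lone lower member was Slc7a11, the cystine transporter, with 17.5 and 23.6 CPM in WT and 7.06 and 7.08 in KO (-1.53). It lost its call without the second WT library or either KO library.

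Cytosolic chaperones were higher in 10 of 20 tested genes (6 on genes of at least 32 CPM), against 13.8% of all genes. The other 10 did not pass, and the list median was 0.23. Hsp90ab1 had 575 and 588.5 CPM in WT and 1030 and 1040 in KO (log2 fold change 0.83), the co-chaperone gene Stip1 160 and 153 against 232 and 221 (0.53), and Hsf1, the gene of the heat shock regulator, rose by 0.90. Cryab, a small heat shock protein that lens also makes in quantity, had 4.03 and 1.31 CPM in WT and 33.5 and 31.9 in KO (3.56). The lens crystallins moved with it, and their part in its rise was not tested.

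Of 25 tested genes of cholesterol synthesis 10 were higher, against 13.8% of all genes, and the other 15 did not pass, with a median of 0.35 that stayed at 0.21 or above under the other scalings. Srebf2, the gene of the transcription factor that drives the pathway, had 33.9 and 31.9 CPM in WT and 74.9 and 62.4 in KO (log2 fold change 1.06, SE 0.16, adjusted p = 2.80e-06). The enzymes Sqle (1.03), Sc4mol (0.83), Fdft1 (0.78) and Hmgcs1 (0.61) were higher too.

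Genes for burning ketones, fatty acids and branched-chain amino acids were higher in 9 of 29 tested, against 13.8% of all genes. The other 20 did not pass. Beside Oxct1, Bcat1 and Acsl1, the mitochondrial dehydrogenase gene Acadvl had 80.1 and 88.3 CPM in WT and 155 and 154 in KO (log2 fold change 0.88), and Cpt1a, which gates fatty acid entry to mitochondria, had 224 and 234 against 346 and 330 (0.56). Bdh1 (1.00), the ketone dehydrogenase that acts before Oxct1, was higher as well. Oxidative phosphorylation had 10 higher of 78 tested, a share below the 13.8% of all genes, with a median of 0.16. The count was 34 with scaling on all genes past edgeR's filter, where 3124 of all 11616 genes were higher, and 4 on genes of at least 32 CPM, where 1028 were. Its examples were Ndufa4 (0.81), Ndufv2 (0.55), Atp5a1 (0.39) and Atp5b (0.33). Glycolysis had 6 higher and 3 lower of 22, against 13.8% and 9.80% of all genes. Its split was 11 and 2 or 3 and 7 under the other scalings. Its higher genes included Pfkfb2 (0.44), Aldoc (0.50), Ldha (0.37) and Aldoa (0.29), and its lower ones Pfkm (-0.58) and Ldhb (-0.83). Of 79 cytosolic ribosomal protein genes 0 passed edgeR's test, with 2 at an unadjusted p below 0.05. DESeq2 called 1 lower, and edgeR itself called 9 higher with scaling on all genes past edgeR's filter, 3 lower on genes of at least 32 CPM, and 2 higher and 5 lower with only the 4 P40 libraries.

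In the autophagy and lysosome list 7 of 19 were higher (11 with scaling on all genes past edgeR's filter), against 13.8% of all genes. The other 12 did not pass. Gabarap, a ubiquitin-like protein of the autophagosome membrane, had 29.04 and 29.9 CPM in WT and 119.8 and 112 in KO (log2 fold change 1.98, SE 0.18, adjusted p = 1.56e-11). Lamp1 (0.72), Psap (0.50), Becn1 (0.52) and Gabarapl1 (0.39) rose less. Immediate early genes were higher in 5 of 15, against 13.8% of all genes. Nr4a1 led them, with 14.0 and 16.1 CPM in WT and 45.6 and 44.8 in KO (1.59). Jund (1.15), Egr1 (0.70), Jun (0.65) and Btg2 (0.48) followed. Egr1 lost its call in 6 alternatives. Of 16 p53 and apoptosis genes 2 were higher, Ccng1 (0.38) and Trp53inp1 (0.32), and Casp9 (-0.81) was lower, and each of the 3 lost its call in several alternatives. In the clock list Nr1d2 (0.38), Dbp (0.61) and Clock (0.31) were higher and Cry1 (-0.57) lower, of 14. Cry1 lost its call in 6 alternatives, Clock in 4, and Dbp and Nr1d2 in 1 each. Of 7 interferon response genes 0 passed edgeR's test and 1 had an unadjusted p below 0.05. DESeq2 called 1 lower, as did edgeR with RLE factors and on genes of at least 32 CPM, and with only the 4 P40 libraries 2 were lower.

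Of 6 tested genes of retinal stress and gliosis, 2 were higher, against 13.8% of all genes, and those 2 belong to the same cytokine pathway. Lifr, the receptor of leukemia inhibitory factor, had 122 and 106 CPM in WT and 235 and 236 in KO (log2 fold change 1.04, adjusted p = 1.88e-10). Stat3, the transcription factor that this receptor activates, had 71.0 and 71.9 CPM in WT and 158 and 157 in KO (1.14, adjusted p = 2.50e-09). The lower one was Cp, the copper oxidase ceruloplasmin (-0.71). The other 3 did not pass, and the lowest of them stood at -1.29. The list median was -0.11, with 3 of the 6 members above 0, so the list as a whole did not rise.

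Markers of other retinal cells were measured in the same libraries. Of 14 rod markers 1 was higher and 9 were lower, against 13.8% and 9.80% of all genes, with a median of -0.24. Cnga1, a subunit of the rod channel, had 298 and 328 CPM in WT and 212 and 205 in KO (log2 fold change -0.58, adjusted p = 3.43e-06), while Pde6a, a rod phosphodiesterase subunit, had 985 and 1042 against 1445 and 1401 (0.49). With scaling on all genes past edgeR's filter 2 rod markers were lower and 1 was higher. Of 11 Mueller glia markers 5 were lower (3 with scaling on all genes past edgeR's filter and 7 on genes of at least 32 CPM), among them Apoe (115 and 121 CPM in WT, 74.7 and 72.5 in KO, log2 fold change -0.68), Aqp4 (-0.79) and Glul (-0.26). Bipolar markers had 1 higher and 3 lower of 14, and amacrine, horizontal and ganglion markers 1 and 1 of 11, 0 and 2 of 4 and 1 and 2 of 9. Car8 of bipolar cells (62.4 and 61.1 CPM in WT, 27.1 and 27.4 in KO, -1.18) and Calb1 of horizontal cells (-1.06) were lower, and Nefh, a neurofilament of ganglion cells, was higher (58.9 and 50.6 against 96.7 and 94.8, 0.80). Of 6 vessel markers 3 were lower, led by Kdr (61.8 and 72.2 against 38.3 and 38.4, -0.80). Summed over all markers, Mueller glia held 1039 and 1069 CPM in WT and 825 and 831 in KO, bipolar cells 655 and 632 against 603 and 589, and vessels 151 and 171 against 82.5 and 85.5. Microglia held 39.3 and 40.4 against 13.4 and 15.6 CPM. Each of these sums was lower in both KO libraries, and the part of other cells in the changes above was not tested.

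Lens genes separated the genotypes at P40. Cryaa had 0 and 2 counts in the WT libraries and 756 and 736 in the KO libraries, or at most 0.657 CPM against 86.1 and 94.8. Crybb2 had 5 and 1 counts in WT and 420 and 413 in KO, Crygs 4 and 2 against 251 and 261, and Cryba1 11 and 6 against 464 and 417. Cryba4 had 9 and 0 against 90 and 60. Both KO libraries were high and both WT libraries near 0, and the other 16 libraries of the series stayed at or below 2.63 CPM for each of these 5 genes. These genes passed the filter only through the KO libraries, and the call of Cryba1 was lost with DESeq2 and that of Cryba4 in 6 alternatives.

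Xist, the RNA of the inactive X chromosome that only females make, had 12.4 and 12.8 CPM in WT and 617 and 601 in KO. In the other 16 libraries it lay between 152.7 and 1813 CPM. All 4 tested Y chromosome genes were present in every library, and Ddx3y had 136 and 117 CPM in WT and 163.5 and 189 in KO (log2 fold change 0.48). Xist and Y genes were thus both present in the KO libraries, while in the WT libraries Xist was low. On the X chromosome 65 of 374 tested genes were higher (17.4%, against 13.8% of all genes) and 15 lower (9.80% of all genes were), with a median of 0.04. Of 8 genes in the X-inactivation and escape list 5 were higher, among them Ddx3x (592 and 636 CPM in WT, 1064 and 1060 in KO, 0.79), Kdm5c (0.73), Kdm6a (0.48) and Eif2s3x (0.34). Enox was lower (-1.05). With scaling on genes of at least 32 CPM 3 of the list were higher. Eif2s3x lost its call in 4 alternatives, Enox in 5 and Ddx3y in 2. The labels do not give sex. At P40 a difference in sex between the groups cannot be told apart from genotype, for these genes or for any other.

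Libraries at P30 and P50, each with controls of their own, show which P40 changes were shared with the neighbouring ages. Of the 1600 higher genes 983 were also higher at P30, where 14.7% of genes were, and 1183 at P50, where 14.6% were. Of the 1138 lower genes 766 were lower at P30 (15.1% of genes) and 446 at P50 (10.2%). The 218 genes at least 2-fold higher at P40 were higher in 159 cases at P30, 197 at P50, 180 at P60 (27.9% of genes) and 163 at P90 (15.8%). The 726 genes at least 2-fold lower behaved otherwise. They were lower in 572 cases at P30 but 156 at P50, and at P60 385 of them were higher and 79 lower, against 27.9% and 15.5% of all genes. The share of counts in silent receptor genes took the same course, from 0.172 and 0.167% in WT against 0.0345 and 0.0322% in KO at P30, over 0.0629 and 0.0639 against 0.0625 and 0.0602 at P50, to 0.00920 and 0.00978 against 0.0406 and 0.0388 at P60. That share includes Olfr1372-ps1, with 240 and 285 counts in WT and 1685 and 1391 in KO at P30. It had 289 and 224 against 1253 and 1908 at P50, and 763 and 768 against 1349 and 1708 at P60. The part of the receptor share in the gene numbers above was not tested.

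Few genes differed at P40 from the mean of their own differences at P30 and P50. The test of the P40 log2 fold change minus the mean of the other 2 called 29 genes (0.250%), with 27 above and 2 below. DESeq2 called 82 above and 15 below, and leaving out any 1 of the P40 libraries left 6 to 12 above. Pcdh15, a protocadherin of hair cells and photoreceptors, had 1281 and 1263 CPM in WT and 1713 and 1711 in KO at P40. It was higher at P40 (0.43) and lower at P30 (-0.42) and P50 (-0.29), a difference of 0.78 (SE 0.084, adjusted p = 7.55e-08). Arr3 was lower at P30 (-0.64), P50 (-0.37), P60 (-1.47) and P90 (-2.32) but did not pass at P40, a difference of 0.60 (SE 0.078, adjusted p = 6.95e-06). A330023F24Rik rose at each age, by 2.23 at P30, 2.86 at P40 and 2.45 at P50, and most at P40 (difference 0.52, SE 0.085, adjusted p = 7.11e-04). These 3, A930011O12Rik and Xist kept the call under every other scaling, filter, block and left-out library and with DESeq2. By glmTreat, which asks for a difference beyond 1.5-fold, Xist passed and the other 4 did not.

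The others depended on single libraries or settings. Opn1mw had log2 fold changes of 0.44 at P30, 0.72 at P40, -0.04 at P50, -2.49 at P60 and -7.02 at P90, and its P40 difference from the neighbours was 0.52 (SE 0.097, adjusted p = 0.00453). Opn1sw, by contrast, stood at -0.54, -0.64 and -0.68 from P30 to P50 and was not among the 29. Snrnp70, a protein of the splicing factor U1, had 238 and 258 CPM in WT and 442 and 446 in KO at P40 (0.84, against -0.09 at P30 and 0.49 at P50, difference 0.64). The genes below were Actb (difference -0.63, SE 0.117, adjusted p = 0.00365) and Rom1 (-0.42, SE 0.097, adjusted p = 0.0447). Actb, the cytoskeletal actin, had 306 and 252 CPM in WT and 282 and 268 in KO, and its P40 value of -0.02 was 0.20 with scaling on all genes past edgeR's filter.

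**Figure D5:**
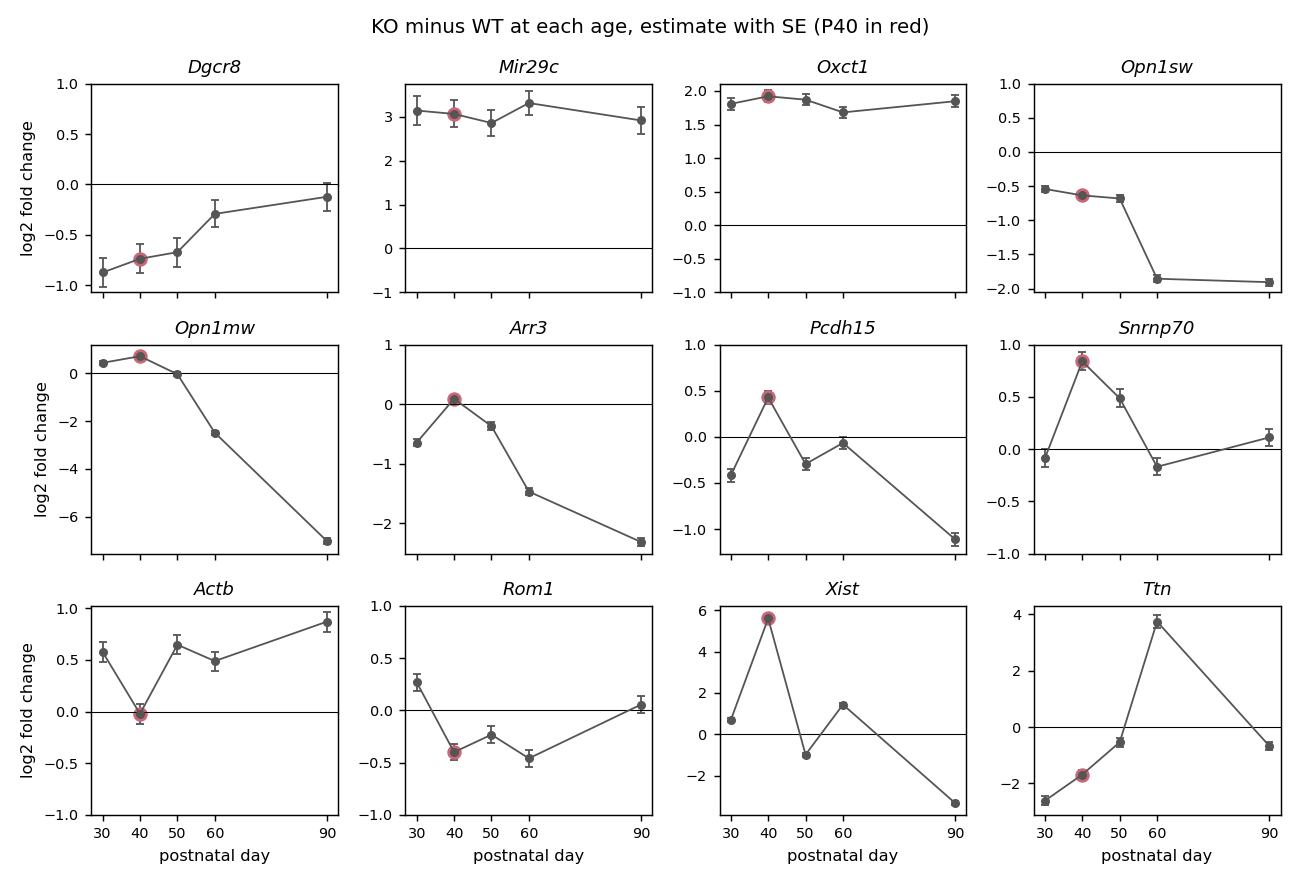
KO minus WT log2 fold change with its SE at P30, P40 (red), P50, P60 and P90 for 12 genes, each panel with its own vertical scale. Mir29c and Oxct1 stay at a like height at every age, Dgcr8 lies at -0.74 at P40 and nearer 0 at P60 and P90, Pcdh15 and Arr3 lie above their neighbours at P40, Xist changes sign between ages, and Ttn runs from -2.62 at P30 to 3.75 at P60. With scaling on genes of at least 32 CPM the P40 value of Arr3 turns from 0.092 to -0.047, and with scaling on all genes past edgeR's filter that of Actb turns from -0.02 to 0.20.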

How the data were processed

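The deposited files hold 1 count per gene symbol and library, whole numbers that the authors left unscaled. Per the labels' protocols, RNA was extracted with Trizol or the PicoPure kit, 150 ng went into ScriptSeq libraries, and pools of 4 libraries shared a HiSeq lane. Which extraction and lane a library had is not given. The build was mm10 (GRCm38) and CASAVA 1.8.0 is named, per the submitters' processing notes. For the aligner, counter, annotation, strand setting and duplicate handling, the entry is: not given in the sources used here. Reads of overlapping or near-identical genes therefore cannot be told apart. In each file 2 unnamed entries, with 14 counts in all 20 files, were left out.

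All 20 libraries were fitted together in 10 groups with edgeR 4.0.16 (quasi-likelihood test, limma 3.58.1, R 4.3.3), with TMM factors from the 11616 genes of a mean of at least 5 CPM at P40, which lessens the weight of low counts. P-values were adjusted over those genes by Benjamini and Hochberg, and the threshold was 0.05. SDs of depth at P40 were 0.430 M around 3.06 M in WT and 0.739 M around 8.36 M in KO (n = 2 each). The 2 libraries of a group differed by more than sampling noise (variance 2.21 times that of sampling in WT and 1.89 times in KO). Replicate numbers were not used to pair the libraries. Deviations of same-numbered libraries correlated at 0.041, which cannot show whether those libraries were handled together. The procedure was tested on simulated counts with the same spread for every gene. Apart from planted changes, all groups had the same composition there. Such counts cannot show how the procedure handles the differences in receptor share, Xist and lens genes between these libraries.

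The libraries, gene lists and tests were chosen with earlier results of these data known. Genes were named by rule, passing over Rik, Gm and LOC symbols outside the lists: the 12 higher and 12 lower of smallest p among called genes of at least 2-fold, the 5 each way of largest fold, the first 6 each way of the difference from P30 and P50, and up to 5 members of smallest p per list, with Dgcr8, Drosha, Dicer1, Opn1sw, Opn1mw, Arr3, Gnat2 and Xist always. Not every gene of the rule is described. Slc7a11, Cd46, Sparc, Col4a1, Fscn2, Fbn1, Eif2c1, Tnrc6c, Lin28b, Xpo5, Cdc42, Ezh2, Bdh1, Sqle, Ldhb, Hsf1, Eif2ak3, Kdm6a, Dnmt3b, Tet1, Prph2 and the other members added as further examples of a list were chosen after their values were seen. Lists also covered pigment epithelium, microglia, astrocytes and erythrocytes. Of 1, 1, 2 and 0 members tested, 1 passed, the microglial Ptprc, which was lower. Its call was lost in 8 of 12 alternatives, each left-out library among them. No mitochondrially encoded symbol is in the files.

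UTRs were the longest annotated per gene in GENCODE M21, matched for 95.6% of tested genes, and microRNA sequences came from RefSeq (GRCm38.p6). Of the symbols 20907 matched the annotation directly, 1749 by an older symbol and 421 not at all. Alternatives were DESeq2 1.42.0, RLE factors, TMM from genes past filterByExpr or of at least 32 CPM, no filter, filterByExpr, a mean of 5 CPM in each group, glmTreat at 1.5-fold, a replicate block, only the 4 libraries, each library left out, and 8-base sites. Tables and figures used Python 3.11.15, numpy 2.4.6, pandas 2.3.3, scipy 1.17.1 and matplotlib 3.10.9.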

Additional observations from a re-analysis of the deposited data

Results flagged for a closer look

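The 29 genes below are those whose P40 log2 fold change, KO minus WT, differed from the mean of their log2 fold changes at P30 and P50 in edgeR's test of that difference. The differences were positive for 27. Among photoreceptor genes they were 0.60 for Arr3, 0.52 for Opn1mw, 0.78 for Pcdh15, 0.33 for Rpgrip1 (a protein of the connecting cilium), 0.50 for Crocc (the ciliary rootlet), 0.39 for Dmd (dystrophin, at the photoreceptor terminal), 0.44 for Thrb and, negative, -0.42 for Rom1. Among neuronal and membrane genes they were 0.61 for Cabp5, 0.55 for Cadm2, 0.49 for Nptx1, 1.47 for Prrt2, 0.51 for Slc8a3, 1.25 for Slc19a1 and 0.41 for Osbp2. Genes of division, RNA processing and the cytoskeleton had 1.04 for Cit, 0.78 for Kif4, 0.64 for Snrnp70, 0.34 for Son, 0.49 for Sfrs18, 0.48 for Ttc14 and, negative, -0.63 for Actb. Noncoding RNAs and genes of digits plus Rik had 5.74 for Xist, 0.52 for A330023F24Rik, 0.55 for Meg3, 0.50 for A930011O12Rik, 0.94 for 5430419D17Rik and 0.76 for 6720401G13Rik. The lens crystallin gene Crybb2 had 6.38, with both P40 KO libraries at 47.8 and 53.2 CPM and no library of another age above 1.62. For Meg3 the positive value means a smaller fall at P40 (-0.34) than at P30 (-0.97) and P50 (-0.83). A difference from the mean need not be a difference from both ages. At P30, P40 and P50 Son had 0.28, 0.91 and 0.86, Nptx1 0.83, 1.76 and 1.70, and Kif4 -0.43, 0.99 and 0.85. In these P50 lay near P40, while Actb (0.58, -0.02 and 0.65) lay apart from both ages.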

How the results depend on the processing

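Of 167 named genes called at P40, 106 kept call and direction in every alternative but glmTreat, 61 lost the call in at least 1 of those, and glmTreat called 60. Counts of higher and lower genes, and of those at least 2-fold higher and lower, depended on scaling and filter. With TMM from genes past filterByExpr they were 3124 and 685, with 454 at least 2-fold higher, and with genes of at least 32 CPM 1028 and 1768, with 140. Without a filter they were 3079, 553, 504 and 434, and with filterByExpr 2896, 573, 456 and 440. With at least 5 CPM in each group 324 were at least 2-fold lower. By glmTreat at 1.5-fold 223 were higher and 161 lower (159 at least 2-fold), and with only the 4 P40 libraries 2523 and 2433 (1225). Leaving out 1 library gave 1010 to 1108 higher, 352 to 510 lower and 208 to 351 at least 2-fold lower. With a replicate block there were 1548 higher and 1017 lower, and whether same-numbered libraries belong together is not given. The block ended the call of Casp9, Egr1, Gad2 and Ptprc among named genes.

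For the difference from P30 and P50 (27 above, 2 below), the alternatives gave 82 and 15 with DESeq2, 62 and 4 without a filter, and 2 and 0 by glmTreat, where 682 had an unadjusted p below 0.05 in the quasi-likelihood test. Against the mean of the 4 other ages 363 were above and 325 below. Below were 1 with filterByExpr as scaling or filter, 5 with RLE, 5 with genes of at least 32 CPM and 4 with 5 CPM in each group. Leaving out 1 library gave 6 to 12 above and 0 to 2 below, and the replicate block 27 and 2.

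Actb turned to 0.20 with filterByExpr as scaling, 0.20 as filter and 0.23 without a filter, and ranged from -0.15 to 0.13 with 1 library left out. Gnat2 turned to 0.028 with filterByExpr as scaling, 0.028 as filter and 0.056 without a filter, and Arr3 (-0.047) and Drosha (-0.094) with genes of at least 32 CPM. With 8-base sites, 22.99% of genes with a miR-29 match were higher and 12.3% lower, against 13.8% and 9.27% without one. With a miR-181 match 20.6% were higher and 9.52% lower, against 13.6% and 9.38% without. Genes with these sites had longer UTRs, with medians of 2791.5 and 2867 bases against 1355.5 and 1317.5 without. The cause of these shifts was not tested. The miR-124 seed was not run. WT depth, at 2.76 M and 3.37 M counts, limits what can be read below about 5 CPM.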

Other observations

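Genes outside the lists were chosen here after their values were seen. Elovl5, an elongase of polyunsaturated fatty acids, had 56.2 and 53.5 CPM in WT and 197 and 199 in KO (log2 fold change 1.85, adjusted p = 8.28e-15), and Elovl6, an elongase of saturated ones, 245 and 228 against 454 and 469 (0.96). Nbl1, a secreted antagonist of bone morphogenetic proteins, had 11.3 and 8.54 CPM in WT and 75.3 and 66.2 in KO (2.82). 6330406I15Rik had 9.41 and 14.8 against 93.8 and 108 (3.08). All 4 were also higher at P30 and P50, where Elovl5 stood at 1.25 and 2.03.

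Among lower genes, the 7 tested Ugt1a genes, which share exons and therefore reads, were all lower, with log2 fold changes of -1.92 to -1.83. G530011O06Rik on the X chromosome had 39.8 and 45.3 CPM in WT and 3.53 and 2.32 in KO (-3.84), and was lower at P30 (-3.75) and P50 (-2.49) too. Among genes with 3 or more miR-29 matches, 17 of 63 were higher (27.0%) and 6 lower (9.52%), with a median UTR of 4965 bases, against 14.1% and 9.39% of all genes with a UTR. With 2 matches 16.1% of 254 were higher and 13.8% lower, and with 3 or more miR-182 matches 10 of 40 were higher. With 2 miR-182 matches 14.8% of 209 were higher, against 20.2% of 1295 with 1. In the comparison family miR-9, 22.7% of 211 genes with 2 matches were higher and 16.3% of 43 with 3 or more.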
